A study of Homo sapiens with 6 samples.

Results

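A set of 46 ribosome biogenesis and nucleolar genes was followed in neuroblastoma (NB) cells with and without acquired resistance to TAE684, a small-molecule inhibitor of the ALK receptor tyrosine kinase. The set holds RNA polymerase I subunits and co-factors, core proteins of the small nucleolar ribonucleoproteins (snoRNPs), assembly factors of both ribosomal subunits and 4 abundant or shared nucleolar proteins. It was chosen by function, from the names of the genes, but with earlier results of these data known, so it was not tested as a set. For each gene, the probe set brightest on average over 6 arrays was used, among those that the annotation pairs with its symbol alone. In all, 39 of the 46 genes could be measured in this way. NOP56, DKC1, BOP1 and PPAN have only probe sets that carry several symbols, so no value is given for these 4 genes, and for GNL3, DDX18 and EBNA1BP2 the annotation used here names no probe set.

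The resistant cells were SY5Y-TR1, a TAE684-resistant subclone expanded from SH-SY5Y after long exposure to rising doses and kept in medium with 1 µM TAE684, and they were set against parental TAE684-sensitive SH-SY5Y cells kept in medium alone. Both lines are human NB cells that carry ALK F1174L, an activating mutation of the kinase. Total RNA of 3 samples in each line was hybridized to Affymetrix U133 Plus arrays, and the values are log2 signals. The labels call the 3 samples biological replicates, whereas the series description speaks of replicates run of each line and no source describes separate cultures, so the p-values below measure the spread between these samples. Because SY5Y-TR1 is a single subclone and was grown in the drug, resistance, clone and drug exposure cannot be told apart.

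Ribosomes are built in the nucleolus. RNA polymerase I transcribes the large rRNA precursor, snoRNPs guide its methylation and pseudouridylation, and a large number of assembly factors fold, cut and export the maturing subunits. Growth signals and the transcription factor MYC are known to drive these genes, and MYC with its partner MAX binds the E-box CACGTG, a palindrome that other helix-loop-helix factors also bind.

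To show what these genes share outside the array values, the windows from 250 bases before to 50 bases after each RefSeq start on GRCh38.p14 were searched. The table of windows held 38 of the 46 genes, in 48 windows, and RRP1B, RRS1, DDX18, TCOF1, NOP58, RRP12, NOLC1 and BOP1 were not matched. An E-box stood in at least 1 window of 19 of the 38 genes (50%), against 8.77% of all 27305 genes in the table and 10.9% of the 15384 genes that were also measured on the arrays. The sites of the genes with an E-box and the largest falls are printed as 30 bases each, 5′ to 3′ on the strand of the gene, with the E-box in capitals and its first base counted from the start as position 1. Both sites of NOP10, a gene that was not called, are shown beside them for contrast.
FBL, chr19:39846356-39846385, minus strand, E-box from position 7: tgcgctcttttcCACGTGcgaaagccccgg
MRTO4, chr1:19251807-19251836, plus strand, E-box from position 15: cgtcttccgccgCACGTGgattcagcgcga
GAR1, chr4:109815781-109815810, plus strand, E-box from position 32: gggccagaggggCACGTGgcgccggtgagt
BYSL, chr6:41921515-41921544, plus strand, E-box from position 29: ttcttcagtcccCACGTGcgatccttcccg
NOP14, chr4:2963374-2963403, minus strand, E-box from position 16: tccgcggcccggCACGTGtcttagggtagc
NOP10, chr15:34343130-34343159, minus strand, E-box from position -11: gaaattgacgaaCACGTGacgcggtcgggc
NOP10, chr15:34343289-34343318, minus strand, E-box from position -170: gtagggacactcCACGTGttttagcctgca

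UTP20 is shown with the whole 250 bases before its start, because its E-box lies just upstream of the start, in a stretch that holds no other copy of the motif; the capitals again mark it.
UTP20, chr12:101279855-101280104, plus strand: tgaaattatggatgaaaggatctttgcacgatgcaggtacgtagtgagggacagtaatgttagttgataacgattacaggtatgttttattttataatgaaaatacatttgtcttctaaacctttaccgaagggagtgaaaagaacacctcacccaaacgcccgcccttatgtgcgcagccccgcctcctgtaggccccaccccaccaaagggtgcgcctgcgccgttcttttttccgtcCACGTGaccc

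Measured genes of the set held 19 such E-boxes, of which 16 began within 50 bases of a start and 10 began at or after it, and their first bases ran from position -203 to 36. The ETS core CCGGAAG, which does not contain the E-box, was searched on both strands too. It stood in the windows of 34.2% of the 38 genes, against 12.2% of all genes in the table and 16.6% of those also measured. Motifs of the factors NRF1 and YY1 were searched as well. They stood in 28.9% and 5.26% of the 38 genes, against 6.98% and 1.04% of all genes in the table. Among the genes also measured on the arrays, the shares were 9.9% and 1.61%. None of these shares was tested, since the genes were picked for one function. Among further genes of the pathway in the table, the E-box stood in 16 of 44 small-subunit and 11 of 44 large-subunit factors, 1 of 14 polymerase I genes, 0 of 8 snoRNP assembly genes and 1 of 12 exosome genes. The ETS core stood in 54.5%, 50%, 50%, 12.5% and 8.33% of these lists in the same order. A match is a description of the letters, not of a bound site.

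**Figure D1:**
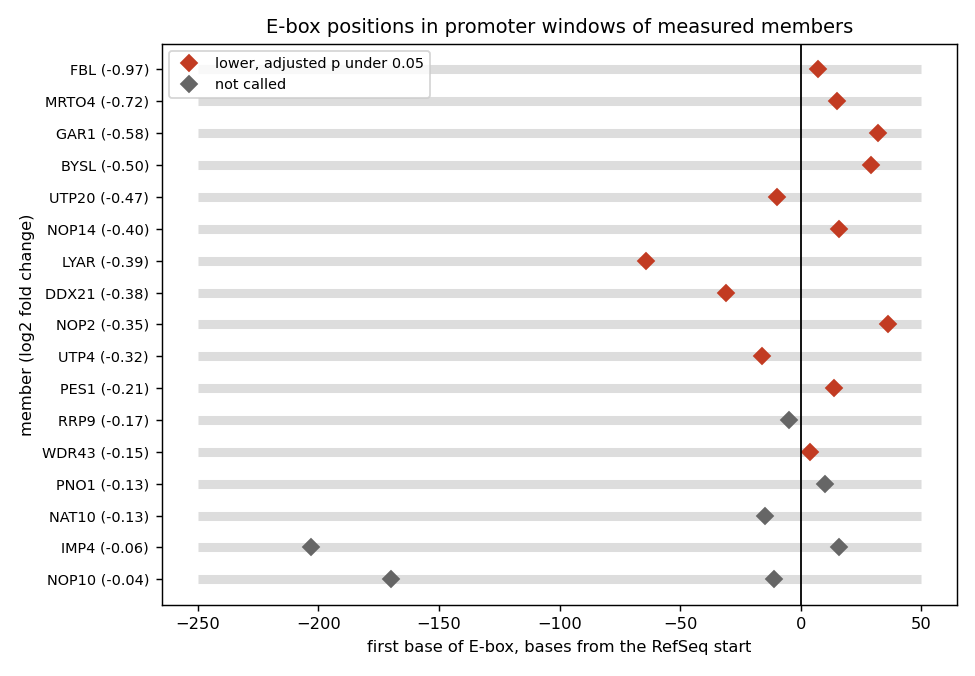
Position of each E-box (x axis, bases from the RefSeq start, with the start at 1) in the promoter windows of the 17 measured genes that hold one; grey bars are the windows searched, red marks are genes lower in SY5Y-TR1 cells at an adjusted p under 0.05, and grey marks are genes not called. Most marks lie within 50 bases of the start, for called and uncalled genes alike.

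As a whole, the set was lower in SY5Y-TR1 cells, by small amounts. All 39 genes were above the background level of 6.17, set at the 90th percentile of 47 genes that belong to unrelated tissues, and 38 of 39 had a lower mean in SY5Y-TR1 than in SH-SY5Y cells. With limma and Benjamini-Hochberg adjustment over all 19775 genes, 29 of the 39 (74.4%) were lower at an adjusted p under 0.05, against 24.3% of all genes, and 0 were higher, against 28.5% of all genes. No gene of the set was higher at an unadjusted p under 0.05 either, and the methods' t-test called 28 lower and 0 higher. The signals of the lines did not overlap in 32 of the 39 (82.1%), all of them lower, against 27.2% lower without overlap among all genes. The median log2 fold change (SY5Y-TR1 as the numerator) was -0.35, or 1.27-fold lower, beside 0.04 over all genes.

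The decreases of single genes were modest. None of the 39 was lower or higher at an adjusted p under 0.05 with a 2-fold change, the limits of the study's array figure, against 5.99% of all genes lower and 5.36% higher. With a limit of 1.5-fold, 5 of 39 (12.8%) were lower, against 10.9% of all genes, a share near the background. Over the 29 called genes the fold ran from 1.11 to 1.96 with a median of 1.32, and 7 lay under 1.2-fold, 17 from 1.2-fold to under 1.5-fold and 5 at 1.5-fold or more. The genes of the set are bright. Of the 9050 genes within their range of mean signal (7.21 to 13.99), 38.9% were lower and 38.8% higher at an adjusted p under 0.05. The median log2 fold change of these 9050 genes was -0.002. With the limit of 1.5-fold, 16.2% of them were lower and 16.3% higher. The SD between the samples of a line was small, at most 0.21 with a median of 0.04 for SY5Y-TR1 and 0.03 for SH-SY5Y cells, so that small differences could be called. In bulk RNA, fewer cells expressing a gene and less of its RNA per cell cannot be told apart, and since RMA sets all arrays to a common distribution, a change in the total RNA of a cell would not be seen.

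**Figure D2:**
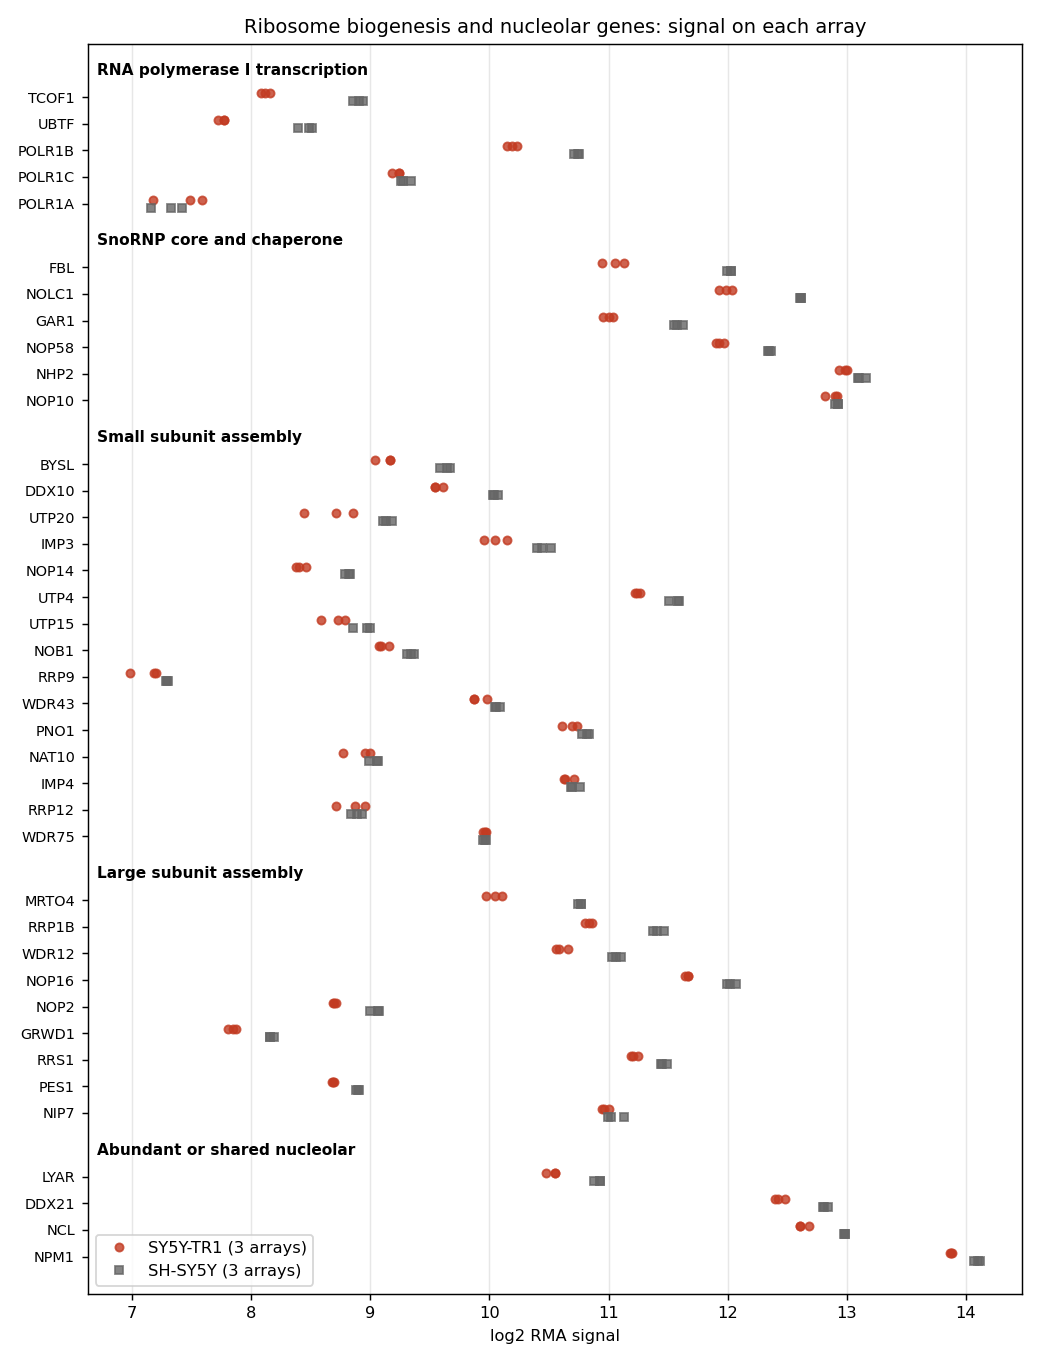
Log2 RMA signal (x axis) of the 39 measured genes on each array, 3 SY5Y-TR1 arrays (red circles) and 3 SH-SY5Y arrays (grey squares), grouped by role and ordered by fold change. The red circles lie left of the grey squares without overlap in 32 of the 39 genes.

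The genes of RNA polymerase I transcription were divided. TCOF1, UBTF and POLR1B were lower and POLR1A and POLR1C were not called, so that 3 of 5 fell, with a median log2 fold change of -0.55. Beside the counts of this and the other role groups, 24.3% of all genes were lower. Among genes within the set's range of mean signal the share was 38.9%. TCOF1 encodes treacle, a nucleolar scaffold of polymerase I transcription mutated in Treacher Collins syndrome. Its log2 signals were 8.11, 8.08 and 8.16 in SY5Y-TR1 cells, against 8.94, 8.86 and 8.91 in SH-SY5Y cells. All SY5Y-TR1 values lay below all SH-SY5Y values, and the difference was 1.72-fold (log2 fold change -0.79, SE 0.05, limma adjusted p = 6.96e-06). Another TCOF1 probe set gave -0.75, and a dim one, at 6.46 in SY5Y-TR1 and 6.57 in SH-SY5Y cells, gave -0.11 and was not called. POLR1B, the second-largest subunit of the enzyme and the brightest gene of this group, gave 10.15, 10.23 and 10.19 in SY5Y-TR1 cells, against 10.75, 10.71 and 10.75 in SH-SY5Y cells. It was 1.46-fold lower without overlap (log2 fold change -0.55, SE 0.04, limma adjusted p = 3.12e-05). Its dimmer probe sets gave -0.46, -0.32 and -0.21, the last not called, and the value was -0.32 without shared-sequence probe sets, whose names mark probes that match several transcripts.

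POLR1A, the largest and catalytic subunit, was the single gene of the set with a higher mean in SY5Y-TR1 cells. Its values of 7.18, 7.58 and 7.49 in SY5Y-TR1 cells overlapped those of 7.16, 7.42 and 7.33 in SH-SY5Y cells. The log2 fold change of 0.11 had 95% limits of -0.17 and 0.40 (limma adjusted p = 0.463). The 2 dimmer probe sets of POLR1A, both above background, gave -0.26 and -0.20. Both were called lower (limma adjusted p = 0.0421 and 0.0378, adjusted over all probe sets), so the direction depended on the probe set. POLR1C, a subunit that polymerases I and III share, had a log2 fold change of -0.07 with limits of -0.17 and 0.04. UBTF, the upstream binding factor that keeps the rRNA genes open, was not among the genes fixed for naming but is one of the 5 past 1.5-fold. It averaged 7.76 ± 0.03 in SY5Y-TR1 and 8.46 ± 0.06 in SH-SY5Y cells (SD, n = 3 each), a 1.63-fold decrease. Its other probe sets above background gave log2 fold changes of -0.34, -0.45 and -0.13, the last not called, and the mean of all its probe sets gave -0.31 against -0.71 for the brightest.

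The snoRNP proteins held the largest decrease of the set. Of 6 measured genes 5 were lower and 1 was not called, with a median log2 fold change of -0.50. FBL encodes fibrillarin, the methyltransferase of box C/D snoRNPs. Its signals were 11.13, 10.94 and 11.05 in SY5Y-TR1 cells, against 12.03, 11.99 and 12.02 in SH-SY5Y cells. The gap between the lines was several times the spread within either, and the decrease was 1.96-fold (log2 fold change -0.97, SE 0.06, limma adjusted p = 6.90e-06), with 95% limits of 1.79-fold and 2.16-fold. FBL ranked 1231 among all 19775 genes ordered from the largest fall. NOP58, another core protein of box C/D snoRNPs, was 1.34-fold lower.

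The box H/ACA proteins, which carry out pseudouridylation and also belong to telomerase, did not move alike. GAR1 was just under 1.5-fold lower (11.00 ± 0.04 in SY5Y-TR1 and 11.58 ± 0.04 in SH-SY5Y cells, SD, n = 3 each). NHP2, the brightest snoRNP gene, gave 12.99, 12.93 and 13.00 in SY5Y-TR1 cells, against 13.16, 13.09 and 13.10 in SH-SY5Y cells. These values did not overlap, but the difference was only 1.11-fold (log2 fold change -0.14, SE 0.04, limma adjusted p = 0.0279), and the call was lost when any array except SH-SY5Y replicate 2 was left out, with an adjusted p up to 0.0983. NOP10 gave 12.92, 12.82 and 12.90 in SY5Y-TR1 cells, against 12.93, 12.90 and 12.92 in SH-SY5Y cells. The lines overlapped, and the log2 fold change of -0.04 had limits of -0.15 and 0.07 (limma adjusted p = 0.506). NOLC1, a chaperone of snoRNPs, was 1.55-fold lower, and its other 2 probe sets gave log2 fold changes of -0.63 and -0.75.

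Among 15 small-subunit factors, 9 (60%) were lower and 6 were not called, against 24.3% of all genes lower. The median log2 fold change was -0.23. BYSL, bystin, a factor of late small-subunit maturation, had the largest decrease. It gave 9.17, 9.04 and 9.17 in SY5Y-TR1 cells, against 9.64, 9.67 and 9.59 in SH-SY5Y cells. The values did not overlap and the decrease was 1.42-fold (log2 fold change -0.50, SE 0.05, limma adjusted p = 0.000148). DDX10, UTP20, IMP3 and NOP14, all parts of early small-subunit assembly, were 1.32-fold to 1.40-fold lower, and UTP20 had the widest spread of these in SY5Y-TR1 cells, 8.67 ± 0.21 against 9.14 ± 0.04 in SH-SY5Y cells (SD, n = 3 each).

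The UTP-A proteins, which bind the nascent rRNA precursor and are needed for its transcription, included called and uncalled genes. UTP4, the brightest of the small-subunit genes, gave 11.24, 11.22 and 11.27 in SY5Y-TR1 cells, against 11.58, 11.51 and 11.59 in SH-SY5Y cells, and was 1.25-fold lower (log2 fold change -0.32, SE 0.04, limma adjusted p = 0.000614). UTP15 and WDR43 were 1.18-fold and 1.11-fold lower, with limma adjusted p-values of 0.0229 and 0.0299. UTP15 lost its call in 3 of 6 fits with 1 array left out (adjusted p up to 0.0749) and with the methods' t-test, and WDR43 in 5 of 6 (up to 0.0989) and with the replicate block (0.0657). WDR75 gave 9.95, 9.97 and 9.96 in SY5Y-TR1 cells, against 9.97, 9.95 and 9.97 in SH-SY5Y cells. Its lines overlapped within 0.02, and the 95% limits of its log2 fold change were -0.09 and 0.09. Of the other 5 uncalled genes, RRP9, PNO1, NAT10, IMP4 and RRP12, the log2 fold changes ran from -0.17 to -0.04. RRP9, a U3 snoRNP protein, and PNO1, which works with the NOB1 endonuclease at the end of rRNA processing, did not overlap between the lines but had adjusted p-values of 0.0683 and 0.0579 by limma, and NOB1 itself was 1.17-fold lower.

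Large-subunit factors were lower in 8 of 9 measured genes, with a median log2 fold change of -0.35. MRTO4, which holds the place of the stalk protein on the maturing large subunit, fell most. It gave 10.10, 9.97 and 10.05 in SY5Y-TR1 cells, against 10.77, 10.74 and 10.77 in SH-SY5Y cells. The lines were apart by far more than their spread, at 1.65-fold (log2 fold change -0.72, SE 0.05, limma adjusted p = 1.37e-05), and a dimmer probe set of the gene gave a log2 fold change of -1.03. NOP16, the brightest large-subunit gene, gave 11.67, 11.64 and 11.67 in SY5Y-TR1 cells, against 12.07, 12.02 and 11.99 in SH-SY5Y cells, a 1.29-fold decrease (log2 fold change -0.37, SE 0.04, limma adjusted p = 0.000226). With the mean of its 4 probe sets, some of them below background, NOP16 had a log2 fold change of -0.10 and was not called. Its other probe set above background gave -0.30 and was called lower.

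PES1 and WDR12, partners of BOP1 in a complex needed for large-subunit rRNA processing, were 1.15-fold and 1.38-fold lower, although the mean over the 2 PES1 probe sets, of which 1 was below background, gave a log2 fold change of 0.06. RRP1B was 1.49-fold lower, NOP2, an rRNA methyltransferase, 1.28-fold, GRWD1 1.25-fold and RRS1 1.19-fold. NIP7 was not called: its signals of 11.00, 10.96 and 10.95 in SY5Y-TR1 cells overlapped those of 10.99, 11.02 and 11.13 in SH-SY5Y cells, and the limits of its log2 fold change were -0.20 and 0.04.

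All 4 abundant or shared nucleolar genes were lower, with a median log2 fold change of -0.37. LYAR, a nucleolar zinc-finger protein, gave 10.55, 10.48 and 10.55 in SY5Y-TR1 cells, against 10.93, 10.88 and 10.93 in SH-SY5Y cells. It was 1.31-fold lower without overlap (log2 fold change -0.39, SE 0.04, limma adjusted p = 0.000225). The RNA helicase DDX21 was 1.30-fold lower and nucleolin (NCL) 1.27-fold. NPM1, nucleophosmin, the brightest gene of the set, gave 13.89, 13.87 and 13.86 in SY5Y-TR1 cells, against 14.07, 14.12 and 14.10 in SH-SY5Y cells, a 1.17-fold decrease (log2 fold change -0.22, SE 0.04, limma adjusted p = 0.00236). Its probe sets disagreed: another gave -0.33 and the dimmest gave 0.18, which was called higher, and the transcripts that each probe set reads were not resolved here.

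**Figure D3:**
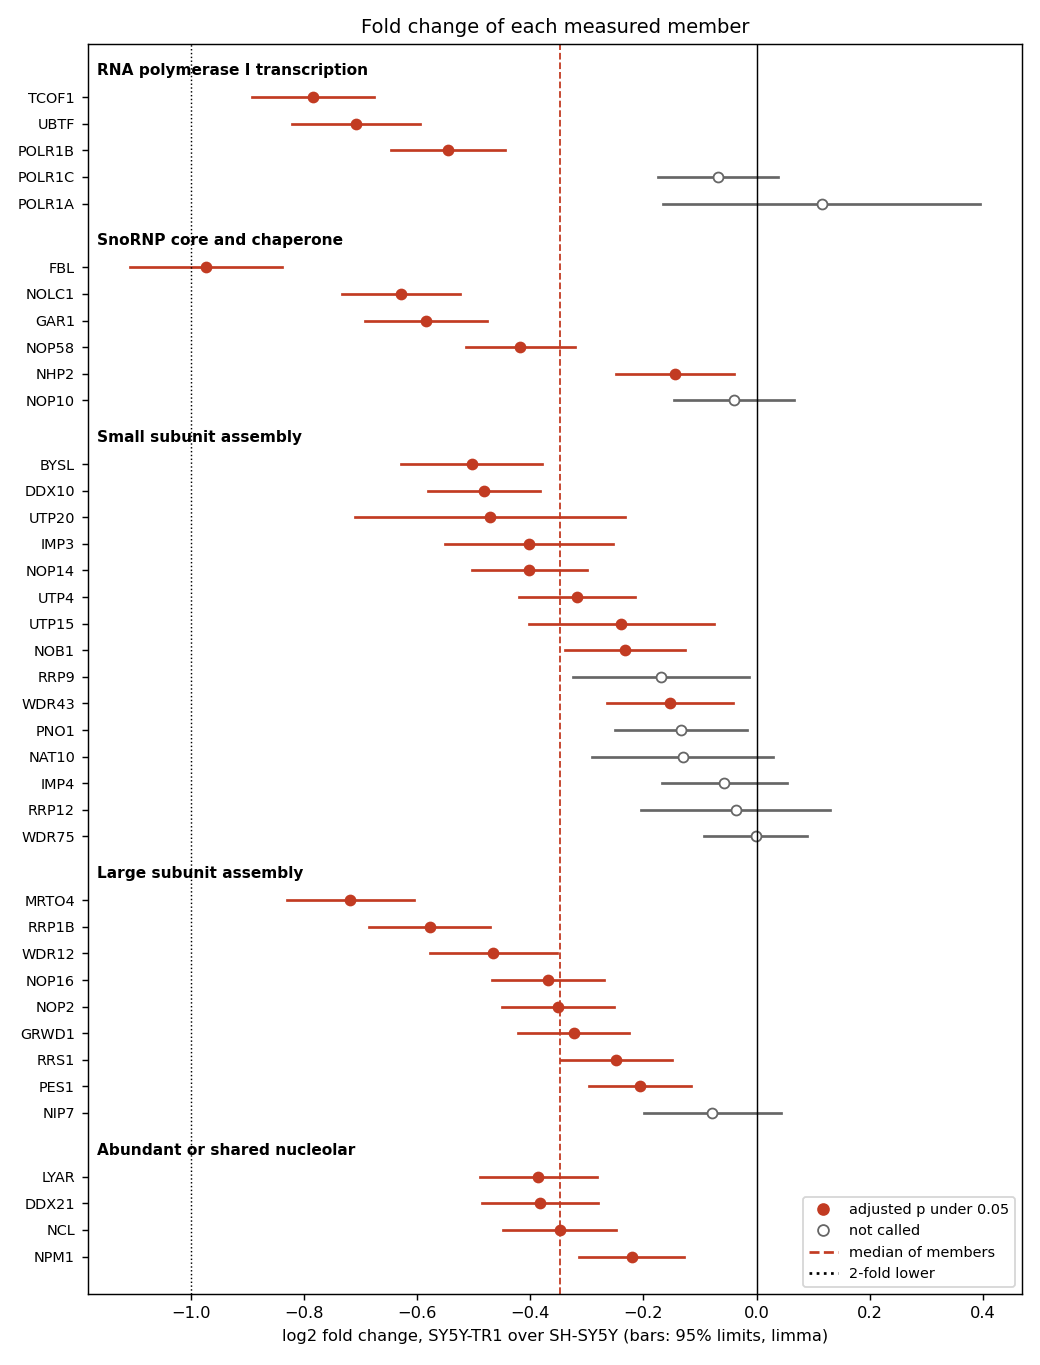
Change of each measured gene in SY5Y-TR1 relative to SH-SY5Y cells (x axis, log2), with 95% limits from limma (bars), grouped by role; filled red points are called at an adjusted p under 0.05. The dashed line is the median of the 39 genes, -0.35, and no point reaches the dotted line of a 2-fold decrease.

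The 39 genes had 76 probe sets in all, 21 genes had more than 1, and of the 37 that were not the brightest 27 were above background. Of these 27, 17 (63%) were lower, 1 was higher (the NPM1 probe set above) and 9 were not called, with adjustment over 54613 probe sets, whereas 36% of the 9348 such probe sets of all genes were lower and 32% higher. Of the 21 genes, 16 were lower on the brightest probe set, and another probe set above background was also lower in 11 of these. DDX10, NCL, PES1, RRP1B and UTP15 had none, and in DDX10, NCL and PES1 the others were all below background. With the mean of all probe sets, the log2 fold change was -0.21 for DDX10, -0.19 for NCL, -0.36 for RRP1B, -0.15 for UTP15 and -0.12 for NPM1. Probe sets of a gene read the same RNA samples and are not replicates.

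Both called and uncalled genes held an E-box. Of 17 measured genes with an E-box 12 were lower, with a median log2 fold change of -0.35, and of 16 without one 12 were lower, with a median of -0.28, and the difference was not tested. Over all measured genes in the promoter table, 31.4% of the 1672 with an E-box and 25% of the 13712 without were lower, and 29.5% and 29.4% were higher. NOP10 and IMP4, the genes with 2 E-boxes in a window, were among the 7 of 39 genes with lines that overlapped. Of all genes, 27.2% were lower and 32.6% higher without overlap. A link between the number of E-boxes and the change was not tested.

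MYC itself was lower in SY5Y-TR1 cells by far more than any gene of the set. It gave 7.92, 7.86 and 7.92 in SY5Y-TR1 cells, against 10.00, 10.06 and 10.01 in SH-SY5Y cells. This is a 4.37-fold decrease (log2 fold change -2.13, SE 0.04, limma adjusted p = 5.91e-08). MYCN, the family member often amplified in NB, lay near background in both lines, at 6.42 ± 0.05 in SY5Y-TR1 and 6.23 ± 0.23 in SH-SY5Y cells (SD, n = 3 each), and was not called (limma adjusted p = 0.207). MYCL was lower but under background in both lines, and MAX, the partner of all of them, had a log2 fold change of 0.01. Whether MYC has a part in the lower signals of the set was not tested.

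**Figure D4:**
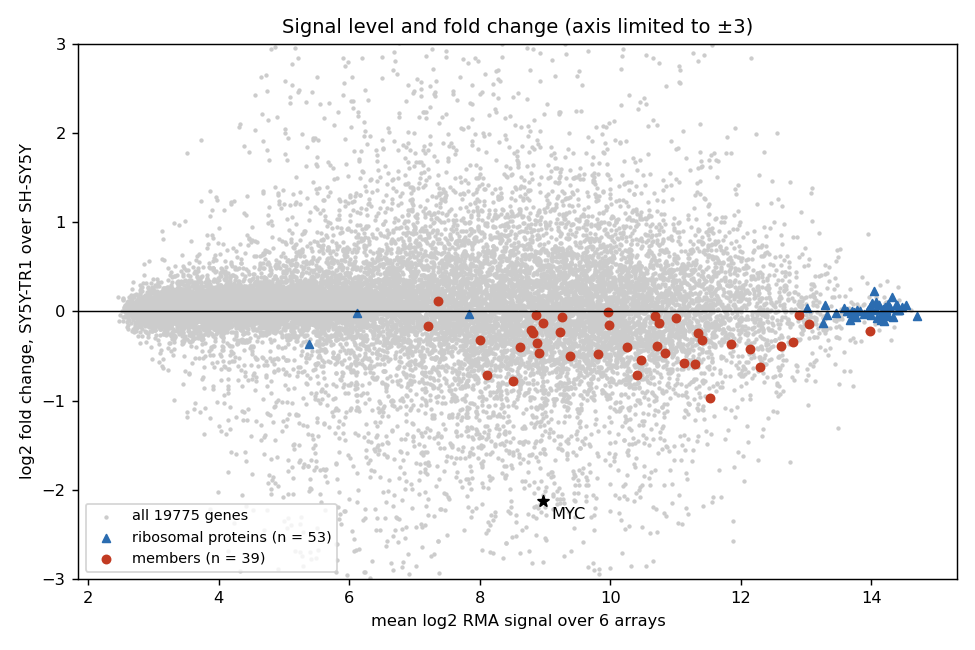
Change in SY5Y-TR1 relative to SH-SY5Y cells (y axis, log2, limited to between -3 and 3), against the mean log2 RMA signal over 6 arrays (x axis) for all 19775 genes (grey), the 39 measured genes of the set (red), 53 ribosomal protein genes (blue) and MYC (star). The red points lie below 0 over their whole range of signal except POLR1A, and most blue points lie near 0 at the bright end.

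Other genes of the pathway, taken from general knowledge with the results of these data known, were lower in part. Of 140 further assembly genes 137 were measured. At an adjusted p under 0.05, 85 (62.0%) were lower and 13 (9.49%) higher, against 24.3% and 28.5% of all genes. Among genes within the set's range of mean signal, these shares were 38.9% and 38.8%. Past 2-fold 3 were lower, against 5.99% of all genes, and the median log2 fold change was -0.23. Among 16 further polymerase I genes, 11 were lower and 1 was higher, with a median of -0.20. TAF1A, a subunit of the promoter selectivity factor of polymerase I, fell most, to 9.23 ± 0.02 in SY5Y-TR1 against 10.19 ± 0.04 in SH-SY5Y cells (SD, n = 3 each), and POLR2L, a small subunit common to the nuclear RNA polymerases, was 1.43-fold higher. Of 12 genes for snoRNP assembly, 10 were lower and 2 higher, with a median of -0.45. NAF1, which assembles box H/ACA particles, was 1.59-fold lower, and RPAP3, a co-chaperone of the R2TP complex, was 1.2-fold higher.

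Further small-subunit factors were the most divided, with 21 lower, 9 higher and 18 not called of 48, and a median log2 fold change of -0.12. Their share of 43.75% lower was near the 38.9% of genes within the set's range of mean signal. Their share of 18.75% higher was below the 38.8% of those genes. RIOK1, a kinase of late small-subunit assembly, was 1.75-fold lower, and KRR1, an early factor, 1.28-fold higher. Of 48 further large-subunit factors 33 were lower and 0 higher, 2 of them past 2-fold, with a median of -0.29; at an unadjusted p under 0.05 limma gave 2 higher, and the methods' t-test called 1. NOL12, a nucleolar RNA-binding protein, was 2.08-fold lower. In the nuclear RNA exosome, which trims rRNA ends and degrades by-products, 10 of 13 were lower and 1 was higher. EXOSC8, a subunit of the exosome ring, gave 9.91, 9.84 and 9.87 in SY5Y-TR1 cells, against 11.16, 11.12 and 11.16 in SH-SY5Y cells, a 2.42-fold decrease (limma adjusted p = 4.56e-07), and EXOSC1 was 1.11-fold higher.

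Ribosomal protein genes, the products that these factors assemble, did not show the decrease. Of 53 measured among 79, 2 were higher and 0 were lower at an adjusted p under 0.05, with a median log2 fold change of 0.01. RPS12, of the small subunit, was 1.17-fold higher. By limma at an unadjusted p under 0.05, 1 large-subunit and 2 small-subunit genes were higher and 3 and 1 were lower, whereas the methods' t-test called 6 and 5 higher and 6 and 4 lower. These genes stand near the top of the scale, where the highest value was 14.74: 50 of 53 had a mean of 13 or more. Of the 160 other genes with a mean of 13 or more, 36.3% were lower and 31.9% higher. They were not matched to the ribosomal protein genes within that range. The E-box stood in the windows of 2 of 38 large-subunit and 2 of 25 small-subunit ribosomal protein genes of the promoter table.

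**Figure D5:**
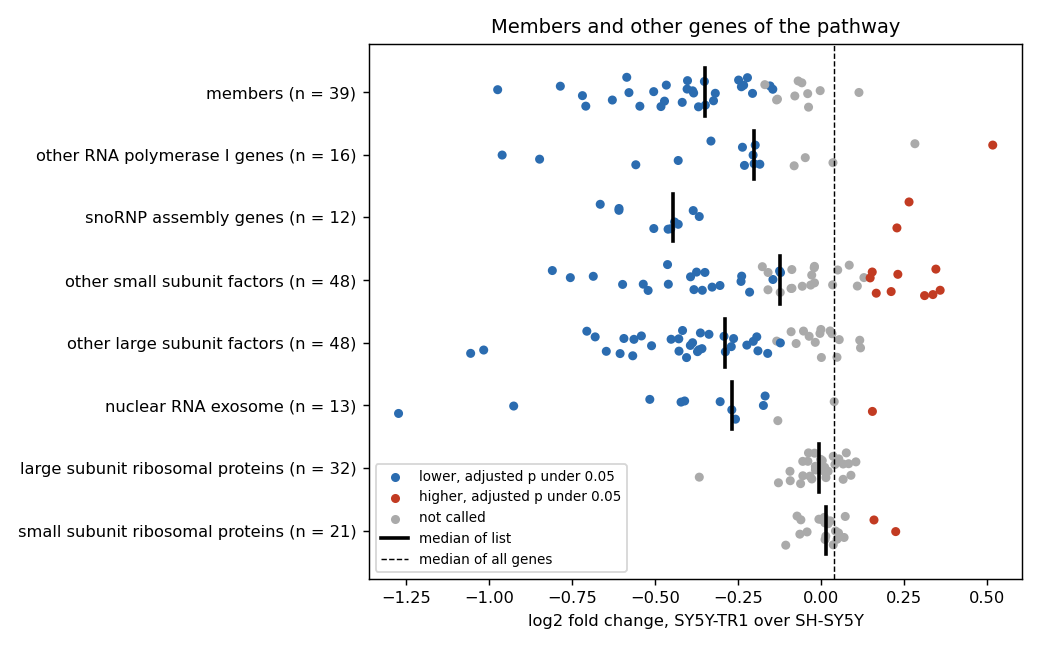
Change in SY5Y-TR1 relative to SH-SY5Y cells (x axis, log2) of each measured gene of the set (top row, called members in the plot) and of the other pathway lists, with n genes per list; blue points are lower and red points higher at an adjusted p under 0.05, grey points were not called, black bars are list medians and the dashed line is the median of all genes. The assembly lists have medians between -0.45 and -0.12, and the ribosomal protein lists have medians of -0.01 and 0.02.

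The lines also differed in identity markers, given here beside the set. Of 14 measured noradrenergic neuroblast markers 13 were lower, and their summed linear signal was 5219 to 5478 in SY5Y-TR1 against 33015 to 34092 in SH-SY5Y cells, whereas all 12 mesenchymal NB markers were higher, with sums of 68422 to 72425 in SY5Y-TR1 against 31911 to 32718 in SH-SY5Y cells. Of markers of other cells, 1 of 7 Schwann cell, 2 of 10 blood cell and 0 of 9 endothelial genes had a mean above background. Between arrays, r over all genes was 0.997 to 0.998 within a line and 0.959 to 0.960 between lines, and no array stood apart. The part of the change of identity in the lower nucleolar signals was not tested.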

How the data were processed

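Total RNA of 3 SY5Y-TR1 and 3 SH-SY5Y samples was hybridized to Affymetrix U133 Plus arrays. The deposited values are log2 signals for which the submitters' notes name RMA and Affymetrix Expression Console, version not given in the sources used here; RMA removes background, gives all arrays one distribution and combines the probes of a probe set. Array medians were 5.56 to 5.59, and precision is limited by the 3 arrays of each line.

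After 62 controls were removed, 54613 probe sets were tested. Of these, 41091 carried 1 symbol, 1801 several and 11721 none, and the brightest probe set with 1 symbol stood for each of 19775 genes. Lines were compared with limma 3.58.1 (lmFit, eBayes) in R 4.3.3 without covariates, with Benjamini-Hochberg adjustment, and the code was tested on simulated data. The set and all lists were chosen with earlier results of these data known, so no list was tested as a set. Genes given per array are those of each role with the largest rise (or smallest fall), the largest fall and the highest signal; from each pathway list the largest called rise and fall are named, with MYC and MYCN.

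Promoter windows were from RefSeq, GRCh38.p14, searched with Python 3.11.15. The alternatives tried were a mean over a gene's probe sets, probe sets without shared-sequence names (ending in _s_at, _x_at or _a_at), centring on 23 housekeeping genes, a second quantile normalization, a filter on dim genes, a replicate block, an intensity trend with robust variance, the methods' t-test, a 1.5-fold limit and each array left out.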

Additional observations from a re-analysis of the deposited data

How the results depend on the processing

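The count of 29 genes lower in SY5Y-TR1 than in SH-SY5Y cells ran from 21 (of 32 still measured, without shared-sequence probe sets) to 31 over the other alternatives and from 26 to 28 with 1 array left out, and no gene of the set was higher under any of them. Of the 29, 22 kept their direction and call under every alternative that could be run for them, 17 under all 14 and FBL, NOP14, IMP3, NPM1 and LYAR under 13, as they have only shared-sequence probe sets. TCOF1, NHP2, UTP15, WDR43, NOP16, NCL and PES1 lost the call under at least 1, and RRP9 and PNO1 gained one. The count of genes lower past 2-fold, 0, became 1 without shared-sequence probe sets and 1 after centring on housekeeping genes. It was 0 to 1 with 1 array left out (1 without SY5Y-TR1 replicate 1). With the limit itself set to 1.5-fold, 5 genes of the set were lower. The median log2 fold change of -0.35 was -0.25 with the mean of all probe sets, -0.27 without shared-sequence probe sets, -0.39 after centring on housekeeping genes and -0.33 after a second quantile normalization, and -0.35 to -0.33 with 1 array left out. The 23 housekeeping genes were not constant themselves: 11 were higher and 5 lower in SY5Y-TR1 cells at an adjusted p under 0.05. Their median log2 fold change was 0.09. The sign turned for POLR1A (-0.11) and PES1 (0.061) with the mean of all probe sets, for RRP12 without shared-sequence probe sets (0.16) and without SY5Y-TR1 replicate 1 (0.031), and for WDR75 without SY5Y-TR1 replicate 1 (0.0049), SH-SY5Y replicate 1 (0.0040) or SH-SY5Y replicate 3 (0.00013). With 1 array left out, RRP12 ran from -0.092 to 0.031 and WDR75 from -0.0097 to 0.0049. The probe sets that entered there for PES1, RRP12 and NCL in addition to or in place of the brightest were below background. Some of those that entered for NOP16 were below background too, and the cause of the other changes was not tested. The replicate numbers did not pair the samples (correlations of the deviations of same-numbered samples 0.0002, 0.02 and 0.03), and with the number as a replicate block 27 genes of the set and 4664 of all genes were lower and 5459 of all genes higher, against 29, 4813 and 5634 without it.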
